A study of Mus musculus with 21 samples.

Results

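The genes described are 10 enzymes and carriers that make bile acids from cholesterol and join them to an amino acid: Cyp7a1, Cyp8b1, Cyp27a1, Cyp7b1, Hsd3b7, Amacr, Acox2, Scp2, Slc27a5 and Baat. They were found by gene name in the scanner files, and all 10 of 10 were present among the 37074 gene names of the array. The study cultured mouse hepatocytes as proliferating progenitor-like cells (chemically induced liver progenitors, CLiPs) and measured total RNA on 1-colour Agilent microarrays. All cells came from female C57BL/6 mice, with no genetic change given in the labels, and each of the 7 groups held 3 arrays. The groups were late CLiPs after 8 days with the inducers oncostatin M and dexamethasone (late induced), late CLiPs after 8 days without them (late uninduced), late CLiPs at day 0, CLiPs of passage 1 (P1) after 8 days with the inducers (P1 induced), P1 CLiPs after 8 days without them (P1 uninduced), P1 CLiPs at day 0, and freshly isolated hepatocytes (fresh). Late replicates 1 and 2 were at passage 12 and late replicate 3 at passage 11. A single fresh array also carries a P1 passage label but its title names fresh hepatocytes, and it was grouped by the title. Whether replicates came from separate cultures or mice is not said in the labels, so p-values reflect only how far these samples spread, which may be technical.

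Bile acids are made from cholesterol almost only in hepatocytes. In the classical route Cyp7a1, the rate-limiting enzyme, hydroxylates cholesterol, and Cyp8b1 adds the hydroxyl group that sets the share of cholic acid. In the alternative route Cyp27a1 of mitochondria oxidises the side chain and Cyp7b1 hydroxylates the resulting oxysterols. Hsd3b7 then changes the sterol ring, Amacr, Acox2 and Scp2 serve the shortening of the side chain in peroxisomes, Slc27a5 couples bile acids to coenzyme A, and Baat joins them to taurine or glycine.

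The measurement of each gene is the hybridisation of 1 probe of 60 bases. The probes of Cyp8b1, which was below background in all CLiPs, and of Cyp27a1, which rose on induction at P1, are shown together with the second probe of Baat, which gave the larger induction at P1 of the gene's probes. The Cyp8b1 probe starts at base 769 of its transcript and lies at chr9:121824595-121824654 on the minus strand, the Cyp27a1 probe starts at base 784 and lies at chr1:74782203-74782262 on the plus strand, and the Baat probe starts at base 1243 and lies at chr4:49502933-49502992 on the minus strand (mm9, per the scanner files).
Cyp8b1: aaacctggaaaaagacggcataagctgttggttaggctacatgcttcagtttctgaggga
Cyp27a1: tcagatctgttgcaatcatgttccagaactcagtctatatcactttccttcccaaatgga
Baat: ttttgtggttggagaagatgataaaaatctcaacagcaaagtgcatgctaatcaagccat

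Promoter sequence of 5 of the 10 genes was taken from RefSeq (GRCm38.p6), and the 250 bases before the annotated start are shown for the 3 whose window ends at the outer edge of the gene. They cover the range of the results: Cyp8b1 was below background in all CLiPs, Hsd3b7 passed no threshold between CLiP groups, and Acox2 came nearest to fresh hepatocytes. The windows lie at chr9:121916306-121916555 (minus strand) for Cyp8b1, chr7:127800359-127800608 (plus strand) for Hsd3b7 and chr14:8259020-8259269 (minus strand) for Acox2. Capitals mark matches, on either strand, to the searched motifs.
Cyp8b1: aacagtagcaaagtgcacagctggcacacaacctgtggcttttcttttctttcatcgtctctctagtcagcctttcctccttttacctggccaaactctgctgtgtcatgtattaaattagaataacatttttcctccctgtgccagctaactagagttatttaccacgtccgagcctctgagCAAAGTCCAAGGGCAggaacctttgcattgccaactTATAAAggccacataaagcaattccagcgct
Hsd3b7: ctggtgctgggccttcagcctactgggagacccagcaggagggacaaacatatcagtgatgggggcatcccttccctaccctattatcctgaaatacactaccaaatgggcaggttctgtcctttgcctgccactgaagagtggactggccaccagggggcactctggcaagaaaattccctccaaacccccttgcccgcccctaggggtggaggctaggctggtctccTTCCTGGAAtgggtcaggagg
Acox2: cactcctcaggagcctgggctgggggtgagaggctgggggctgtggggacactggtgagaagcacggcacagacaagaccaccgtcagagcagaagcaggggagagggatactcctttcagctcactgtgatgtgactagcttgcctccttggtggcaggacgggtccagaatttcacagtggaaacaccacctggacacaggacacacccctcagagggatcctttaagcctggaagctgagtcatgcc

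The Cyp8b1 window held a match to the HNF4A motif CAAAGTCCA that overlaps a match to the LRH-1 motif CAAGGNCA, and a TATA box (TATAAA) nearer the start. These motifs occur in 0.384%, 5.53% and 12.4% of 32851 windows of the same length. The Hsd3b7 window held the STAT motif TTCCNNGAA on both strands at a single place, a motif in 4.06% of windows, and the Acox2 window held none of those searched. Neither the HNF1 motif (0.00913% of windows) nor the glucocorticoid receptor motif TGTTCT (16.1%) was found in the windows of these members, nor in those of Cyp27a1 and Scp2, which lie inside the annotated genes. A match is a stretch of letters and not a measured binding site.

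Levels are given as log2 of the processed signal minus the 75th percentile of the array, and a log2 difference is the first-named group minus the second. Differences were tested with limma, with p-values adjusted (Benjamini-Hochberg) over every gene tested, and a gene rose or fell if it had an adjusted p under 0.05 and changed by 2-fold or more. Where the scanner called a probe well above background on 0 of 3 arrays of a group, only a bound can be given. Such a fold is written as at least so much, against the lowest level that any probe called above background had on those arrays, or the dim probe's own where that was higher. The 75th percentile signal was 881 to 1241 on late, 466 to 789 on P1 and 291 to 332 on fresh arrays, and the share of probes well above background ranged between 46.1% and 60.5%. The late arrays came from another scanner and software version than the P1 and fresh arrays, so in any comparison of late with P1 or fresh arrays the scanner and the passage cannot be told apart. Fresh arrays lay on slides 1, 2 and 3, P1 arrays on slides 4 and 5 and late arrays on slides 6 and 7. Between fresh, P1 and late arrays the slide and the group thus cannot be told apart either. Late induced replicate 3 was alone on its slide and was the only late induced array at passage 11. Among late induced arrays slide and passage thus cannot be told apart. That replicate stood above its fellow replicates for several members, so late results are also given without it.

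**Figure D1:**
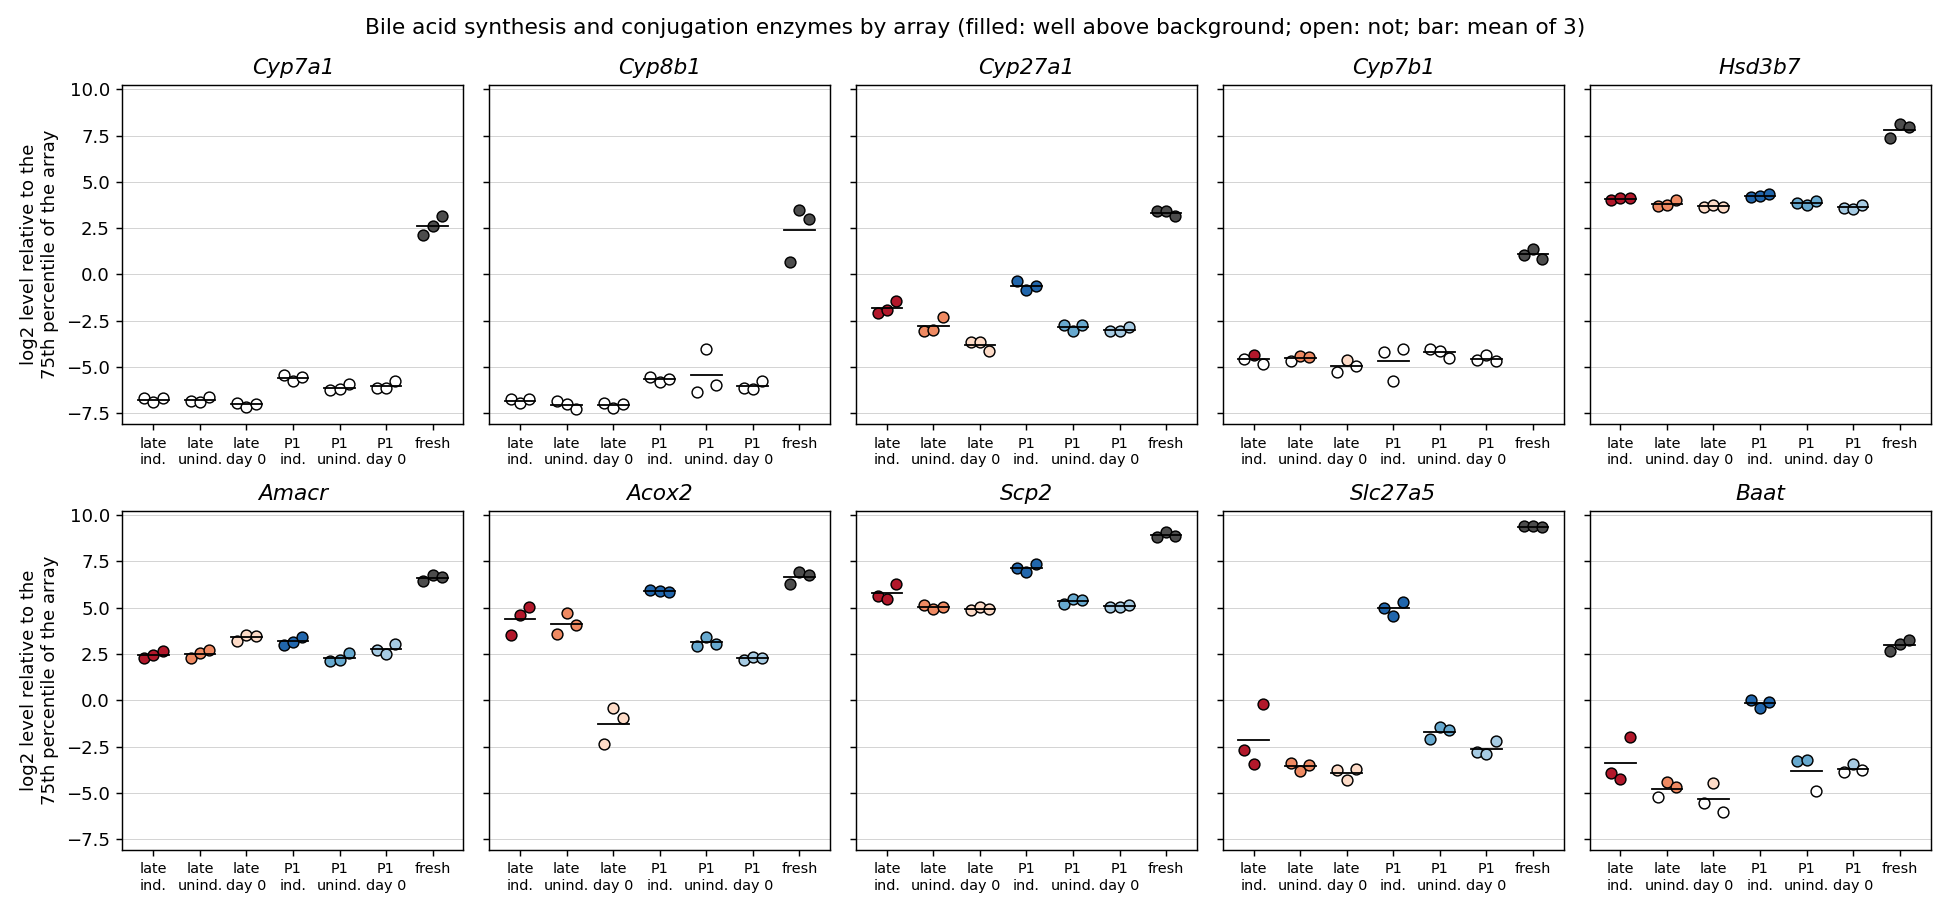
Each panel plots 1 gene, with the log2 level relative to the 75th percentile of the array on the y axis and the 7 groups on the x axis (ind., with inducers; unind., without). Each point is an array, filled if well above background and open if not, and bars are means of 3 arrays. All fresh points lie above all CLiP points in every panel, and Slc27a5, Baat, Acox2, Scp2 and Cyp27a1 stand higher in P1 induced than in P1 uninduced CLiPs.

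All 10 genes fell in CLiPs of P1 at day 0 against fresh hepatocytes. The comparison asks what culture as CLiPs does to the pathway, but culture and slide cannot be told apart in it. Among all tested genes of that comparison 25.2% fell. The median log2 difference of the 10 was -5.98, beside -0.01 over all 20631 tested genes. In bulk RNA, fewer cells of a type and less RNA per cell cannot be told apart.

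Both enzymes of the classical route were at background in P1 day-0 CLiPs. Cyp7a1 (probe at chr4:6193456-6193515, minus strand, mm9) had log2 levels of -6.12, -6.11 and -5.76 on the P1 day-0 arrays, none well above background, against 2.14, 2.60 and 3.15 in fresh hepatocytes. It was at least 91.9-fold lower in P1 day-0 CLiPs (limma, adjusted p = 9.6e-11). Cyp8b1 had log2 levels of -6.13, -6.18 and -5.77 on the P1 day-0 arrays, again none well above background, against 0.66, 3.48 and 2.99 in fresh hepatocytes. It was at least 76.8-fold lower in P1 day-0 CLiPs (limma, adjusted p = 9.9e-07). The fresh arrays themselves spread widely for Cyp8b1, with replicate 1 well below the others (SD 1.51, the largest SD of the 10 genes in fresh hepatocytes), whereas for Cyp7a1 they were closer together (SD 0.50).

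The alternative route fell as well. Cyp27a1 stayed measurable, with log2 levels of -3.07, -3.07 and -2.83 in P1 day-0 CLiPs against 3.42, 3.43 and 3.16 in fresh hepatocytes, a log2 difference of -6.33 (SE 0.15, adjusted p = 5.4e-11 by limma). Cyp7b1 (probe spanning chr3:17972720-17996548, minus strand, mm9) had -4.59, -4.38 and -4.68 in P1 day-0 CLiPs, none well above background, against 1.07, 1.35 and 0.82 in fresh hepatocytes. It was at least 31.3-fold lower in P1 day-0 CLiPs (limma, adjusted p = 1.5e-07). A second Cyp7b1 probe, of another transcript, had -5.84, -6.27 and -5.92 in P1 day-0 CLiPs against 3.01, 3.05 and 2.47 in fresh hepatocytes, so the fall was seen with either probe.

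Hsd3b7 and the side-chain enzymes fell by less. Hsd3b7 (probe at chr7:134947251-134947310, plus strand, mm9) had log2 levels of 3.59, 3.51 and 3.76 in P1 day-0 CLiPs against 7.37, 8.13 and 7.97 in fresh hepatocytes, a log2 difference of -4.20 (SE 0.17). Amacr, the racemase that turns the side chain to the form the oxidase accepts (probe at chr15:10925139-10925198, plus strand, mm9), had 2.69, 2.49 and 3.04 in P1 day-0 CLiPs against 6.44, 6.74 and 6.67 in fresh hepatocytes, a log2 difference of -3.88 (SE 0.18). Acox2, the peroxisomal oxidase of branched side chains (probe at chr14:9058141-9058200, minus strand, mm9), had 2.19, 2.34 and 2.30 in P1 day-0 CLiPs against 6.26, 6.91 and 6.76 in fresh hepatocytes, a log2 difference of -4.37 (SE 0.17). Scp2, whose long form is the thiolase of side-chain cleavage and whose short form is a sterol carrier protein, was read by a single probe (chr4:107717189-107717248, minus strand, mm9), whose data do not separate the forms. It had 5.04, 5.04 and 5.12 in P1 day-0 CLiPs against 8.82, 9.07 and 8.85 in fresh hepatocytes, a log2 difference of -3.85 (SE 0.13). The adjusted p of these 4 genes by limma lay between 5.1e-10 and 6.1e-09, and on all 12 P1 and fresh arrays each stayed well above background.

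The conjugating enzymes held the widest fall. Slc27a5 (probe at chr7:13573701-13573760, minus strand, mm9) had log2 levels of -2.79, -2.91 and -2.20 in P1 day-0 CLiPs against 9.40, 9.38 and 9.33 in fresh hepatocytes. Its log2 difference of -12.00 (SE 0.24, adjusted p = 1.7e-11 by limma) leaves 0.0244% of the fresh level and ranked 20582 of 20631 tested genes from the highest change. Baat (probe at chr4:49502399-49502458, minus strand, mm9) had -3.88, -3.46 and -3.76 in P1 day-0 CLiPs, where only replicate 2 was well above background, against 2.65, 3.03 and 3.23 in fresh hepatocytes. Its log2 difference was -6.67 (SE 0.38, adjusted p = 4e-08 by limma). The other Baat probe, shown above, was below background on all P1 day-0 arrays, with levels of -5.46, -5.86 and -5.21 against 3.38, 3.98 and 3.64 in fresh hepatocytes.

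Culture for 8 days without inducers moved none of the 10 genes past the threshold at P1. In P1 uninduced against P1 day-0 CLiPs 0 of 10 were called by limma, beside 11.1% of all tested genes in either direction, and 4 of 10 had an unadjusted p under 0.05, as did 45.3% of all tested genes. Acox2 had log2 levels of 2.93, 3.43 and 3.03 in P1 uninduced CLiPs against 2.19, 2.34 and 2.30 at day 0, a log2 difference of 0.85 (SE 0.17, adjusted p = 0.0033 by limma) that is under 2-fold. Slc27a5 had -2.12, -1.44 and -1.58 in P1 uninduced CLiPs against -2.79, -2.91 and -2.20 at day 0 (log2 difference 0.92, SE 0.24, adjusted p = 0.012 by limma), also under 2-fold. It was called without P1 day-0 replicate 3 (1.14), without P1 uninduced replicate 1 (1.13) and within slide 4 (1.08). Cyp7a1, Cyp8b1 and Cyp7b1 were below background in both groups.

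Oncostatin M and dexamethasone raised 5 of the 10 genes at P1 and lowered 0. Among all tested genes 9.68% rose and 9.02% fell in P1 induced against P1 uninduced CLiPs. The 5 were both conjugating enzymes (Slc27a5 and Baat), the peroxisomal Acox2 and Scp2, and the mitochondrial Cyp27a1. The induced arrays of all 5 stood above the uninduced arrays with no overlap, as in 33.5% of all tested genes. The median log2 difference of the 10 genes was 1.35, beside 0.05 over all tested genes.

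Slc27a5 moved most. Its log2 levels were 5.00, 4.57 and 5.29 in P1 induced CLiPs against -2.12, -1.44 and -1.58 in P1 uninduced CLiPs, a log2 difference of 6.66 (SE 0.24, adjusted p = 2.5e-08 by limma), or 101-fold, ranked 25 of 20631 tested genes. Baat had -0.01, -0.40 and -0.08 in P1 induced CLiPs against -3.30, -3.22 and -4.92 in P1 uninduced CLiPs, where replicate 3 was not well above background (log2 difference 3.65, SE 0.38, adjusted p = 2.4e-05 by limma). With the other Baat probe the induced arrays had 0.33, 0.30 and 0.51 and the uninduced arrays -6.43, -5.70 and -6.12, all 3 below background. Both conjugating enzymes were thus well above background on all P1 induced arrays.

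The peroxisomal genes rose unequally. Acox2 had log2 levels of 5.92, 5.91 and 5.86 in P1 induced CLiPs against 2.93, 3.43 and 3.03 in P1 uninduced CLiPs (log2 difference 2.77, SE 0.17, adjusted p = 5.8e-07 by limma). Its second probe gave a log2 difference of 2.48. Scp2 had 7.15, 6.91 and 7.33 in P1 induced CLiPs against 5.18, 5.46 and 5.40 in P1 uninduced CLiPs (1.79, SE 0.13, adjusted p = 1.5e-06 by limma). Amacr had 3.00, 3.13 and 3.42 in P1 induced CLiPs against 2.10, 2.19 and 2.54 in P1 uninduced CLiPs, groups that do not overlap, but its log2 difference of 0.91 (SE 0.18, adjusted p = 0.0018 by limma) is under 2-fold.

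Of the enzymes that begin the routes or act on the sterol ring, Cyp27a1 was the member that rose. It had log2 levels of -0.38, -0.86 and -0.61 in P1 induced CLiPs against -2.72, -3.07 and -2.71 in P1 uninduced CLiPs (log2 difference 2.22, SE 0.15, adjusted p = 1.2e-06 by limma). Hsd3b7 had 4.21, 4.22 and 4.33 in P1 induced CLiPs against 3.84, 3.73 and 3.97 in P1 uninduced CLiPs, a difference of 0.40 (95% interval 0.02 to 0.78, adjusted p = 0.082 by limma). Cyp7a1 and Cyp8b1 were below background on all 6 of these arrays, so any change there was not detectable. Cyp7b1 was too with the probe used, but its second probe was well above background on P1 induced arrays 1 and 3, with levels of -2.75, -4.02 and -3.03 in P1 induced CLiPs against -4.55, -4.20 and -4.57 in P1 uninduced CLiPs, and that probe's difference of 1.17 and the used probe's -0.44 have opposite signs.

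**Figure D2:**
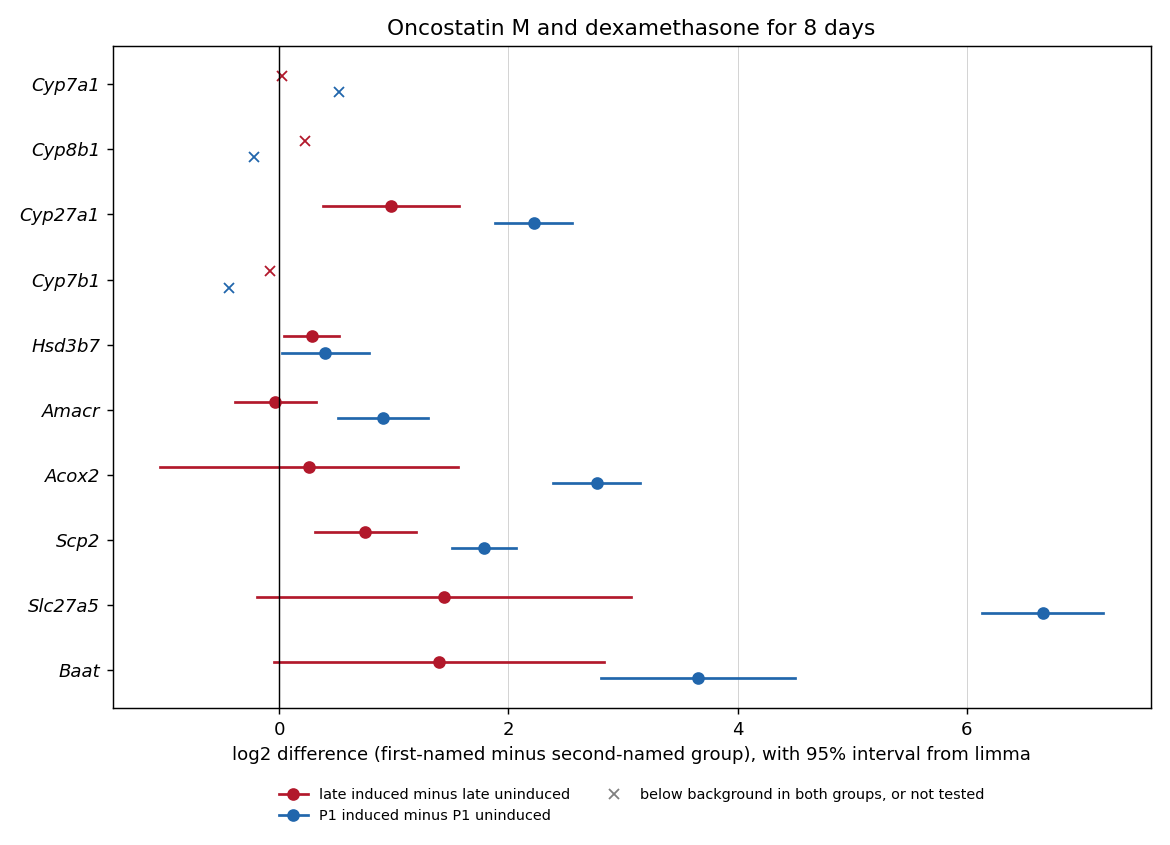
Points are log2 differences of induced minus uninduced CLiPs at late passage (red) and P1 (blue) for each gene, with 95% intervals from limma, and crosses mark genes below background in both groups or not tested. At P1 the intervals of Slc27a5, Baat, Acox2, Cyp27a1 and Scp2 lie above 1, and at late passage no interval does.

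P1 arrays lay on slides 4 and 5. Slide 4 held 1 induced and 2 uninduced arrays and slide 5 held 2 induced and 1 uninduced array, so each comparison within a slide has a group of 1 array, assumed to vary like the other groups. The spread was taken from all 12 fresh and P1 arrays. With 1 array in a group, only effect sizes are given. The 5 genes raised at P1 were higher with inducers on each slide. Within slide 4 the log2 difference was 3.25 for Baat, 2.75 for Acox2, 2.52 for Cyp27a1 and 1.83 for Scp2. On slide 5 Baat had 4.68, Acox2 2.85, Cyp27a1 1.97 and Scp2 1.72. The log2 difference of Slc27a5 was 6.77 within slide 4 and 6.51 within slide 5.

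After induction at P1, 9 of 10 genes were still lower than in fresh hepatocytes, where 18.8% of all tested genes were lower. Acox2 was the exception, at 5.92, 5.91 and 5.86 in P1 induced CLiPs against 6.26, 6.91 and 6.76 in fresh hepatocytes, a log2 difference of -0.75 (SE 0.17, adjusted p = 0.0025 by limma) that is under 2-fold and leaves 59.6% of the fresh level. Scp2 stood at 29.2%, Baat at 11.4%, Amacr at 9.25%, Hsd3b7 at 8.40%, Cyp27a1 at 6.47% and Slc27a5 at 4.68% of fresh, as ratios of geometric means. Thus Slc27a5 was 21.4-fold below fresh hepatocytes even after its 101-fold rise. Cyp7a1 was at least 71.6-fold, Cyp8b1 at least 59.9-fold and Cyp7b1 at least 24.4-fold lower than in fresh hepatocytes.

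**Figure D3:**
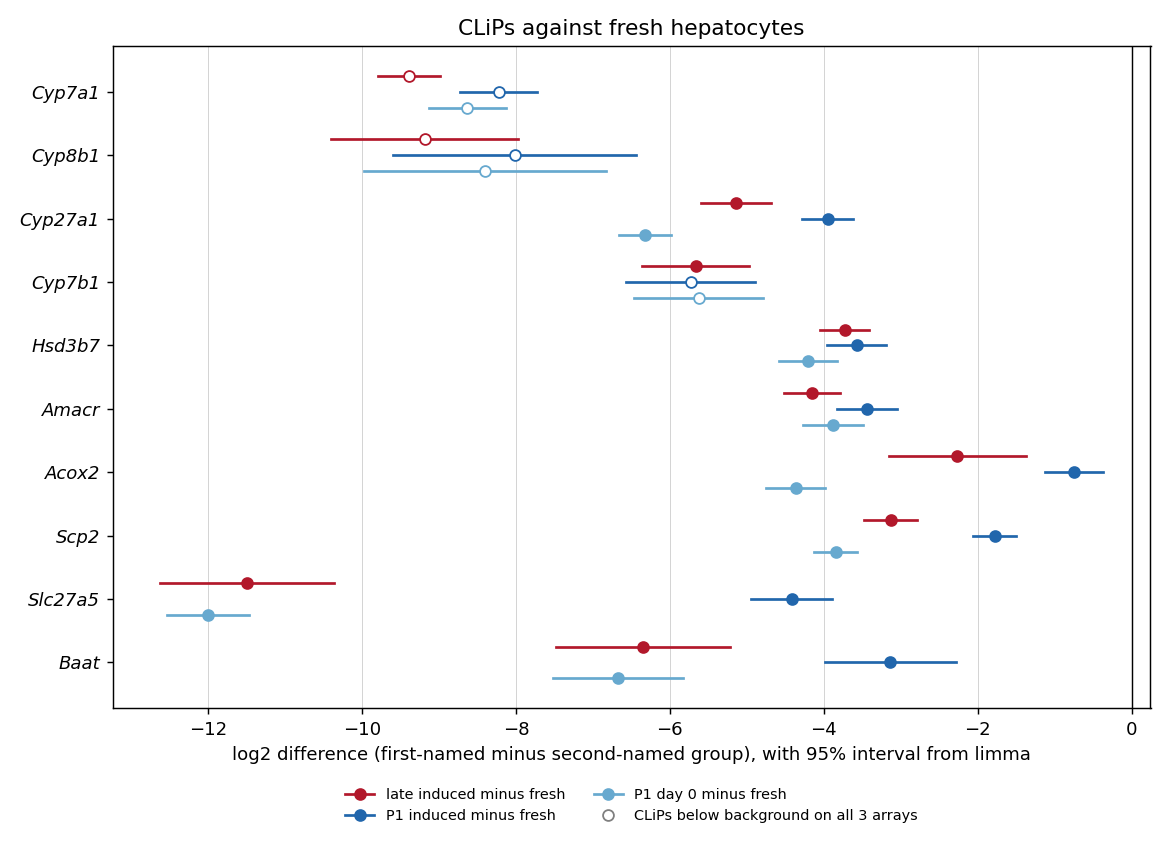
Points are log2 differences of late induced (red), P1 induced (dark blue) and P1 day-0 CLiPs (light blue) minus fresh hepatocytes, with 95% intervals from limma, and open points mark genes below background on all 3 CLiP arrays, whose fitted values are not bounds. All points lie left of 0, and P1 induced Acox2 (-0.75) lies nearest to it.

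In late CLiPs, 8 days without inducers changed a single member strongly. Of the 10 genes 7 could be tested, since Cyp7a1, Cyp8b1 and Cyp7b1 were not well above background on all 3 arrays of any late group. Of these 7 genes 2 rose in late uninduced against late day-0 CLiPs, and 0 fell, where 8.19% of all tested genes rose and 6.37% fell. Acox2 had log2 levels of 3.56, 4.73 and 4.08 in late uninduced CLiPs against -2.37, -0.44 and -0.98 at day 0. Its log2 difference of 5.38 (SE 0.57, adjusted p = 0.00019 by limma), or 41.8-fold, ranked 32 of 21342 tested genes, and its second probe gave 4.05. Cyp27a1 had -3.06, -2.99 and -2.28 in late uninduced CLiPs against -3.67, -3.63 and -4.13 at day 0, a log2 difference of 1.03 (SE 0.26, adjusted p = 0.012 by limma) just over 2-fold. It was 0.87 without late day-0 replicate 3, 0.78 without late uninduced replicate 3, 0.89 after quantile normalization and 0.59 after normexp background correction, all under 2-fold.

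Amacr had log2 levels of 2.27, 2.54 and 2.70 in late uninduced CLiPs against 3.17, 3.54 and 3.45 at day 0, groups that do not overlap, with a log2 difference of -0.88 (SE 0.15, adjusted p = 0.0021 by limma) under 2-fold. Scp2 had 5.13, 4.93 and 5.03 in late uninduced CLiPs against 4.85, 5.02 and 4.92 at day 0, and Hsd3b7 had 3.71, 3.72 and 4.02 in late uninduced CLiPs against 3.65, 3.77 and 3.64 at day 0. Their groups overlapped. Slc27a5 had -3.38, -3.81 and -3.49 in late uninduced CLiPs against -3.75, -4.33 and -3.74 at day 0 (log2 difference 0.38, 95% interval -1.25 to 2.02).

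Adding the inducers to late CLiPs moved 0 of the 7 tested members past the threshold by limma, where 5.99% of all tested genes were called in either direction. An unadjusted p under 0.05 was found for 3 of the 7, and for 32.9% of all tested genes. Cyp27a1 had log2 levels of -2.06, -1.93 and -1.42 in late induced CLiPs against -3.06, -2.99 and -2.28 in late uninduced CLiPs (log2 difference 0.97, SE 0.26, adjusted p = 0.035 by limma). It was called without late uninduced replicate 3 (1.22), and was 0.78 (adjusted p = 0.076 by limma) without late induced replicate 3. Scp2 had 5.63, 5.45 and 6.26 in late induced CLiPs against 5.13, 4.93 and 5.03 in late uninduced CLiPs (0.75, SE 0.19, adjusted p = 0.031 by limma), under 2-fold, and the difference was 0.51 without late induced replicate 3. The induced arrays stood above the uninduced arrays with no overlap for these genes and for Baat, as in 20.7% of all tested genes.

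For the conjugating enzymes the late difference was largest in 1 array. Slc27a5 had log2 levels of -2.71, -3.44 and -0.22 in late induced CLiPs against -3.38, -3.81 and -3.49 in late uninduced CLiPs. Its difference was 1.44 (95% interval -0.20 to 3.07, adjusted p = 0.20 by limma), and 0.48 without late induced replicate 3. Baat had -3.93, -4.24 and -1.97 in late induced CLiPs against -5.23, -4.40 and -4.69 in late uninduced CLiPs, with a difference of 1.40 (95% interval -0.04 to 2.84, adjusted p = 0.16 by limma), and 0.69 without that array. Its other probe had -4.36, -5.00 and -0.92 in late induced CLiPs against -5.83, -7.02 and -5.26 in late uninduced CLiPs. Replicate 3 was thus the high array for both genes and both Baat probes. Between late samples of the same number, induced minus uninduced was 0.66, 0.37 and 3.28 for Slc27a5 and 1.30, 0.16 and 2.72 for Baat, positive in all 3 pairs. Acox2 had 3.53, 4.59 and 5.02 in late induced CLiPs against 3.56, 4.73 and 4.08 in late uninduced CLiPs, overlapping groups with a difference of 0.26 (95% interval -1.04 to 1.56), and -0.06 without late induced replicate 3.

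The size of the induction effect differed between late and P1 CLiPs for 5 of 10 genes in a fit of all 21 arrays, all smaller in late CLiPs, where 5.21% of all tested genes had a smaller or more negative effect past the threshold. The effect, induced minus uninduced, of Slc27a5 was 1.44 in late CLiPs and 6.66 in P1 CLiPs on the log2 scale, a difference of -5.23 (SE 0.76, adjusted p = 0.00017 by limma). That of Acox2 was 0.26 in late CLiPs and 2.77 in P1 CLiPs (difference -2.51, SE 0.60, adjusted p = 0.0071 by limma). Without inducers Acox2 had already risen from day 0 by 5.38 in late CLiPs and by 0.85 in P1 CLiPs, so its late effect is set against a raised level. The effect of Cyp27a1 was 0.97 in late CLiPs and 2.22 in P1 CLiPs (difference -1.24, SE 0.30, adjusted p = 0.0083 by limma). Each of these effects is a difference between arrays of the same scanner.

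Scp2 and Baat were closer to the threshold. The effect of Scp2 was 0.75 in late CLiPs and 1.79 in P1 CLiPs (difference -1.03, SE 0.23, adjusted p = 0.0047 by limma), and it was -0.74 after quantile normalization. The effect of Baat was 1.40 in late CLiPs and 3.65 in P1 CLiPs (difference -2.26, SE 0.76, adjusted p = 0.048 by limma), with an adjusted p of 0.06 in the fit with a replicate block. Of the 12 fits that left out 1 array, Baat lost its call in 8 (adjusted p up to 0.13) and Scp2 in 5, where its difference was under 2-fold. Without late induced replicate 3 the count was 6 of 10 genes, Amacr passing at -1.04. It was 3 without P1 induced replicate 3, without late uninduced replicate 3, and without late induced replicate 1 or replicate 2.

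Set directly against P1 induced CLiPs, late induced CLiPs had 6 of 10 genes lower in the fit, where 13% of all tested genes were lower. Cyp7a1, 1 of the 6, was below background in both groups, so no fold is given for it. Slc27a5 had log2 levels of -2.71, -3.44 and -0.22 in late induced CLiPs against 5.00, 4.57 and 5.29 in P1 induced CLiPs, a log2 difference of -7.08 (SE 0.54, adjusted p = 3.6e-08 by limma), and -8.03 without late induced replicate 3. The log2 difference was -3.22 for Baat, -1.52 for Acox2, -1.35 for Scp2 and -1.19 for Cyp27a1, with adjusted p between 4.6e-06 and 0.006 by limma. Baat had -3.92 without late induced replicate 3. Acox2 had an adjusted p of 0.075 with slide as a random block. Hsd3b7 stood at 4.02, 4.14 and 4.13 in late induced CLiPs against 4.21, 4.22 and 4.33 in P1 induced CLiPs, a difference of -0.15 (95% interval -0.47 to 0.16).

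Before induction the gap was seen in fewer members. In late against P1 day-0 CLiPs 3 of 10 genes were lower in the fit, where 9.11% of all tested genes were, and Cyp7a1 among them was again below background in both groups. Acox2 had -2.37, -0.44 and -0.98 in late day-0 CLiPs against 2.19, 2.34 and 2.30 in P1 day-0 CLiPs, a log2 difference of -3.54 (SE 0.42, adjusted p = 9.2e-06 by limma). Baat had -5.54, -4.47 and -6.05 in late day-0 CLiPs against -3.88, -3.46 and -3.76 in P1 day-0 CLiPs, with 1 array well above background in each group (-1.65, SE 0.54, adjusted p = 0.024 by limma). The Baat call was lost in 4 of the 6 fits that left out 1 array (without P1 day-0 replicate 2 or 3, or late day-0 replicate 1 or 3), with an adjusted p up to 0.11, and with slide as a random block (-0.98, adjusted p = 0.38). Without P1 day-0 replicate 3 only the Acox2 call was left. Amacr was 0.65 higher in late day-0 CLiPs (SE 0.17, adjusted p = 0.0081 by limma), which is under 2-fold.

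Against fresh hepatocytes, all 10 genes were lower in late induced CLiPs, where 26.6% of all tested genes were, and the count was also 10 without late induced replicate 3. Slc27a5 stood at 0.0347% of the fresh level, Baat at 1.23%, Cyp7b1 at 1.97%, Cyp27a1 at 2.83%, Amacr at 5.63%, Hsd3b7 at 7.56%, Scp2 at 11.4% and Acox2 at 20.8%. Without late induced replicate 3, Slc27a5 stood at 0.0179% and Baat at 0.752%. Cyp7a1 was at least 146-fold and Cyp8b1 at least 122-fold lower. For Cyp7b1 a single late induced array was well above background.

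The order of the groups differed between members. Fresh hepatocytes came first for all 10 genes, and P1 induced CLiPs came next for 7 of them: Cyp7a1, Cyp27a1, Hsd3b7, Acox2, Scp2, Slc27a5 and Baat. For Cyp7a1 that second place lies below background. Cyp7a1 and Cyp8b1 were below background in every CLiP group, so their order among CLiPs is one of background signals. Late day-0 CLiPs came last for 8 genes (these 2 among them, and Cyp7b1 and Baat with 1 of 3 arrays well above background), the exceptions being Hsd3b7, where P1 day-0 CLiPs were last, and Amacr, where late day-0 CLiPs came directly after fresh hepatocytes. Acox2 had the clearest order, since 1 of its 6 pairs of neighbouring groups overlapped, late induced and late uninduced. For Amacr and Cyp7b1 5 of 6 neighbouring pairs overlapped, all but that of fresh hepatocytes with the next group.

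Over the 21 arrays the members rose and fell together to different degrees. The 45 pairs had a median Pearson r of 0.87 (0.40 to 0.99), and 0.51 (-0.39 to 0.97) over the 18 CLiP arrays alone. All points share the arrays and the scaling, and groups make them cluster, so these values are a description. Cyp7a1 and Cyp8b1 were below background on all CLiP arrays and Cyp7b1 on most, so r over CLiPs for pairs with them rests on background signals. Cyp7a1 with Cyp8b1 had 0.73 over CLiPs in this way. Scp2 and Slc27a5 were the closest pair (r = 0.99, and 0.97 over CLiPs), and Amacr with Acox2 the least close (0.40, and -0.32 over CLiPs). Among the 10802 genes kept for this search, each of them detected above background on every array, the pattern most like that of Slc27a5 over the 21 arrays was that of Slc46a1 (r = 0.99), and next that of Cyp3a11. The genes most like Scp2 were Phyh and Thnsl2, those most like Hsd3b7 were Retsat and Pex5, the gene most like Acox2 was Itgb5, and those most like Cyp27a1 were C8g and Etfdh. For Baat they were Rtp3 and Glyctk, for Amacr Uqcrfs1 and Aldh4a1, for Cyp7b1 Adh1 and Akr1c6, for Cyp8b1 Cyp2b13 and Gngt1, and for Cyp7a1 A1bg and Gm8221. All these r lay between 0.976 and 0.999. For Cyp7a1, Cyp8b1 and Cyp7b1 they are mainly a contrast of fresh hepatocytes with signals at or near background in CLiPs.

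The other enzymes and carriers of the pathway were followed in a list of 18 genes, chosen with earlier results of these data known. At P1 day 0, compared with fresh hepatocytes, 15 of 18 fell and 1 rose (median log2 difference -3.24). Among all tested genes 25.2% fell. The largest falls were those of the ketosteroid reductase gene Akr1c6 (-13.70, adjusted p = 3.5e-08 by limma), of Cyp2a12, a bile acid hydroxylase of mouse liver (-12.69), of Akr1c14 (-8.18) and of Slc27a2, an acyl-CoA synthetase that activates bile acid precursors (-7.96). Of the P1 day-0 arrays, only replicate 2 had Akr1c6 and Akr1c14 well above background. The 2 that did not pass were Acot8 (-0.98) and Cyp46a1 (-0.58), and the 1 that rose was the cholesterol 25-hydroxylase gene Ch25h, which was below background in fresh hepatocytes and at least 3.23-fold higher.

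On induction at P1, where 9.68% of all tested genes rose and 9.02% fell, 6 of these 18 rose and 0 fell (median 0.56). They were Cyp2a12 (6.60, adjusted p = 1.6e-05), Slc27a2 (3.71, adjusted p = 6.3e-06), Cyp2c70, which makes the muricholic acids of mice (3.28, adjusted p = 5.9e-05), the oxysterol hydroxylase gene Cyp39a1 (2.82, adjusted p = 0.00082, all by limma) and 2 others. Slc27a2 had log2 levels of 4.60, 4.13 and 4.62 in P1 induced CLiPs against 0.36, 1.04 and 0.83 in P1 uninduced CLiPs. Cyp39a1 had 3.61, 4.57 and 4.22 in P1 induced CLiPs against 1.73, 2.04 and 0.17 in P1 uninduced CLiPs, and its difference from fresh hepatocytes after induction was 0.50 (adjusted p = 0.38 by limma). Not past the threshold were Hsd17b4 (0.84) and Acaa1b (0.08) of peroxisomal oxidation, and Akr1d1 was below background in all P1 groups. Late induction raised 0 of 15 tested genes of the list and lowered 1, Ch25h, which was at least 2.45-fold lower. In that comparison 5.99% of all tested genes were called in either direction. The induction effect was smaller in late than in P1 CLiPs past the threshold for 3 of 18 genes. Among all tested genes 5.21% had a smaller or more negative effect. The differences were -2.66 for Cyp2c70, -2.64 for Cyp39a1 and -1.05 for Abcd3, a peroxisomal transporter.

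In late uninduced against late day-0 CLiPs, Cyp39a1 rose by 2.93 (adjusted p = 8.7e-05 by limma) and Slc27a2, below background at late day 0, was at least 2.68-fold higher. They were the 2 of 15 tested genes of that list that rose, and 0 fell, where 8.19% of all tested genes rose and 6.37% fell.

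A list of 14 regulators held the nuclear receptors and other genes known to act on this pathway, of which 13 were tested at P1, Fgf15 being too dim. This list too was chosen with earlier results of these data known. In liver, bile acids bound to FXR (gene Nr1h4) raise SHP (Nr0b2), which represses Cyp7a1 and Cyp8b1, while LRH-1 (Nr5a2) and HNF4A (Hnf4a) activate them. All 13 fell at P1 day 0 compared with fresh hepatocytes (median log2 difference -3.02), where 25.2% of all tested genes fell. Over the alternative settings of processing 10 to 13 regulators fell. The log2 difference was -2.72 for Nr1h4, -6.86 for Nr0b2, -2.87 for Nr5a2, -1.31 for Hnf4a and -6.22 for Ppara. It was -5.91 for Klb, the co-receptor through which FGF signals repress bile acid synthesis.

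On induction at P1, where 9.68% of all tested genes rose and 9.02% fell, 9 of the 13 rose and 0 fell (median 1.62). Nr1h4 had log2 levels of 4.28, 4.26 and 4.60 in P1 induced CLiPs against 1.76, 1.81 and 1.84 in P1 uninduced CLiPs (log2 difference 2.58, adjusted p = 9.4e-07 by limma). Nr5a2 had 2.60, 2.68 and 2.93 in P1 induced CLiPs against 0.92, 1.13 and 0.89 in P1 uninduced CLiPs (1.75, adjusted p = 3.2e-06 by limma). Hnf4a had 6.97, 6.69 and 7.05 in P1 induced CLiPs against 5.52, 5.40 and 5.87 in P1 uninduced CLiPs (1.31, adjusted p = 8.5e-05 by limma). All 3 were separate between the groups, and Nr0b2 was below background on all 6 arrays. Ppara, the receptor that governs peroxisomal fatty acid oxidation, rose by 2.73 (adjusted p = 1.3e-05 by limma). Rxra rose by 2.46, and Nr1i2, the gene of the xenobiotic receptor PXR, was at least 9.79-fold higher.

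In late CLiPs Nr5a2 was below background at day 0, with log2 levels of -7.04, -7.26 and -7.03 against 1.21, 0.94 and 1.25 in P1 day-0 CLiPs, at least 60.5-fold lower. It was at least 2.09-fold higher in late uninduced than in late day-0 CLiPs. In that comparison 6 of 12 tested regulators rose, beside 8.19% of all tested genes. The number of regulators was 3 to 7 over the alternatives. On late induction 4 of 12 rose, among them Klb (2.24) and Rxra (1.55), and 1 fell, the clock gene Dbp (-1.53). There 5.99% of all tested genes were called in either direction. Over the alternatives 2 to 5 regulators rose and 0 to 1 fell. Nr1h4 had 4.77, 4.33 and 4.37 in late induced CLiPs against 3.29, 3.01 and 2.97 in late uninduced CLiPs (1.40, adjusted p = 0.0025 by limma). Hnf4a had 4.55, 4.90 and 5.93 in late induced CLiPs against 4.45, 4.73 and 4.89 in late uninduced CLiPs, overlapping groups with a difference of 0.44 (adjusted p = 0.42 by limma). Nr0b2 was below background on all late induced arrays.

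**Figure D4:**
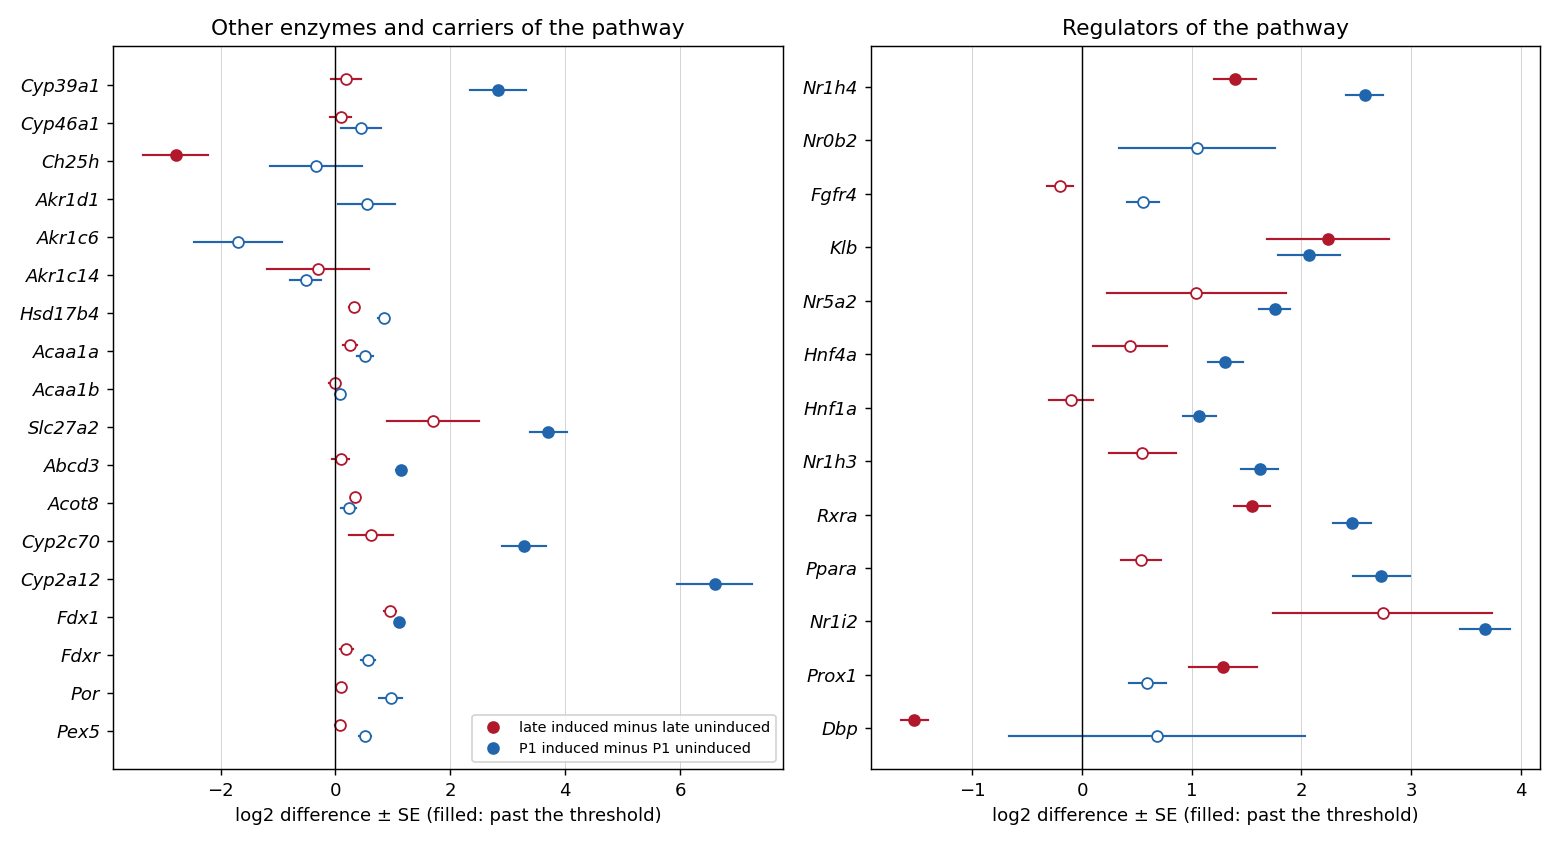
Points are log2 differences of induced minus uninduced CLiPs with their SE, at late passage (red) and P1 (blue), for the other enzymes and carriers of the pathway (left) and its regulators (right), and filled points passed the threshold. At P1, 6 of 18 enzymes and carriers and 9 of 13 regulators lie to the right as filled points, beside 9.68% of all tested genes that rose. Genes not tested in a comparison have no point.

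Markers of cell types were followed on the same arrays. Summed over 8 hepatocyte markers (Alb, Ttr, Apoa1, Apoc3, Serpina1a, Cyp3a11, Cps1 and Tat), the signal relative to the 75th percentile was 391 to 693 in late induced, 302 to 410 in late uninduced, 49.1 to 147 in late day-0, 1282 to 1581 in P1 induced, 870 to 939 in P1 uninduced and 879 to 1115 in P1 day-0 CLiPs, against 4380 to 5017 in fresh hepatocytes. The CLiPs thus held hepatocyte transcripts at a lower level, with Alb and Ttr well above background on every array and Apoc3 and Cps1 below it in late day-0 CLiPs. The 7 biliary and progenitor markers summed to 292 to 813 over all CLiP groups against 1.23 to 2.15 in fresh hepatocytes, where Krt19, Krt7, Epcam and Cd24a were below background. Their sum was 692 to 813 in P1 induced against 476 to 510 in P1 uninduced CLiPs, and of the 7 markers Spp1 rose (log2 difference 1.01) while Krt19 (-3.01), Krt7 (-2.37), Epcam (-2.15) and Prom1 (-3.36) fell.

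Of other liver cells, 2 to 3 of 8 endothelial markers were well above background on CLiP arrays against 7 to 8 on fresh arrays, and Cdh5, Kdr, Lyve1 and Tek were below it in all CLiP groups. For Kupffer cells and macrophages it was 2 to 4 of 8 on CLiP arrays against 8 on fresh arrays, with Adgre1, C1qa, Cd5l and Vsig4 below background in all CLiP groups. The 8 markers summed to 7.96 to 10.2 in P1 induced, 17.1 to 22.8 in P1 uninduced and 3.47 to 3.76 in P1 day-0 CLiPs and to 3.29 to 12.9 in late CLiPs, against 8.99 to 30.0 in fresh hepatocytes. Csf1r rose in P1 uninduced against day-0 CLiPs (2.66) and fell in P1 induced against uninduced CLiPs (-1.18). The 8 stellate and fibroblast markers summed to 0.185 to 0.546 in late CLiPs and to 7.58 to 109 in P1 CLiPs, against 3.63 to 10.3 in fresh hepatocytes, with Col1a1 and Pdgfrb below background in late CLiPs. In P1 induced CLiPs that sum was 47.4 to 109, against 7.58 to 44.1 in P1 uninduced CLiPs. Their part in the results on the 10 genes was not tested.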

How the data were processed

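Total RNA of 21 samples in 7 groups of 3 was measured on 1-colour Agilent arrays. Intensity values are the processed signals of Agilent Feature Extraction, deposited per array, per the file headers in version 10.7.3.1 (late) or 11.5.1.1 (P1 and fresh). The authors also deposited 2 tables of log2 values, whose differences between arrays match those of the levels used here to within 0.00435. The table of fresh and late arrays is also centred on each probe's median. They served as an alternative.

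From the scanner files, levels were computed as log2 of the processed signal less its 75th percentile on that array, without control and outlier-flagged spots. Each gene was read by its probe of highest mean over the 21 arrays. A gene was tested if 1 or more groups of the fit had it well above background on every array. Group means were fitted with limma 3.58.1 in R 4.3.3 on 12 fresh and P1 arrays, 9 late arrays, or all 21 arrays for comparisons across them, with Benjamini-Hochberg adjustment over 20631, 21342 and 22353 genes. The procedure was tested on simulated data.

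The members and gene lists were chosen with earlier results of these data known. All 10 members are named. Of each list, up to 4 called genes with the largest change, uncalled genes that bear on the members, and Nr1h4, Nr0b2, Nr5a2 and Hnf4a are named. The 2 genes most like each member were taken by Pearson r, for a member dim on some arrays among 15347 tested genes; 1 of them is not reported here.

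Same-numbered late samples deviated together (r 0.25 to 0.55 in 9 of 9 pairs of samples). In every late group replicate 3 was at passage 11 and replicates 1 and 2 at passage 12. A difference between passages can give such r too, so pairing of the late samples by number is not concluded. The reported fits had no replicate block, which served as an alternative. Over P1 groups r passed 0.1 in 7 of 9 pairs, among them all 3 of day 0 with uninduced (0.21 to 0.46), and with fresh samples in 0 of 9. In P1 day-0 and P1 uninduced CLiPs, replicates 1 and 2 lay on slide 4 and replicate 3 on slide 5. Of P1 induced CLiPs only replicate 1 lay on slide 4. Between P1 day-0 and P1 uninduced CLiPs, replicate number and slide therefore cannot be told apart. They part for P1 induced replicate 2, whose r with replicate 2 was -0.11 for P1 day 0 and 0.08 for P1 uninduced. No pairing of P1 samples is concluded. With fresh samples no relation by number was seen. The number of arrays limits the precision. Alternatives covered normalization, background correction, probe choice, the filter, the samples in the fit, slide and replicate blocks, the authors' tables, and leaving out each replicate.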

Additional observations from a re-analysis of the deposited data

Results flagged for a closer look

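The effect of the inducers, induced minus uninduced, differed between late and P1 CLiPs for 5 members by a test of the difference itself, in the limma fit of all 21 arrays with adjustment over 22353 genes. The difference, late minus P1, was -5.23 for Slc27a5, -2.51 for Acox2, -2.26 for Baat, -1.24 for Cyp27a1 and -1.03 for Scp2 on the log2 scale. For Acox2 the late effect is set against a level that had risen by 5.38 from day 0 without inducers, against 0.85 in P1 CLiPs. All 3 P1 induced arrays stood above all P1 uninduced arrays for each of the 5 genes, and in late CLiPs this held for Baat, Cyp27a1 and Scp2. Such a separation was found for 33.5% of all tested genes at P1 and for 20.7% in late CLiPs. The arrays are those that gave the calls, so the separation is a description. Late induced replicate 3 was the highest late induced array for all 5 genes, and without it the differences were -6.18, -2.83, -2.96, -1.44 and -1.27 in the same order of genes. Over the 12 fits that left out 1 array, Baat lost its call in 8 and ranged from -2.96 to -1.70, and Scp2 lost its call in 5 and ranged from -1.27 to -0.87. Baat also lost it with no filter (adjusted p 0.081), with only the compared groups (0.09) and with the replicate block (0.06). Late induced CLiPs also had a lower summed signal of hepatocyte markers (391 to 693) than P1 induced CLiPs (1282 to 1581), whose part in these differences was not tested.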

How the results depend on the processing

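Over all alternatives, 1356 of the members' recomputed changes kept their direction and side of the threshold, 39 lost the threshold, 15 gained it and 30 changed sign. Of those kept, 64 came from the authors' tables, which hold nearly the same differences between arrays, so agreement there was fixed. In the late fit, slide as a fixed block is the same as leaving out late induced replicate 3, alone on its slide. The counts of members called in P1 day 0 minus fresh (10), P1 induced minus uninduced (5 to 6), P1 induced minus fresh (9), late induced minus P1 induced (6) and late induced minus fresh (10) moved no further when replicates were left out. The count for P1 uninduced minus day 0 was 1 with the mean of all probes and within slide 4 (an alternative chosen after seeing the data), and 0 to 1 without single replicates. For late uninduced minus day 0 it was 1 after quantile normalization and after normexp, and 1 to 2 without single replicates. For late induced minus uninduced it was 0 to 1, and for the difference of the effects 3 to 6. For late minus P1 day 0 it was 1 after normexp, 5 with only the compared groups, and 1 to 3 without single replicates.

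With the replicate number as a block (replicate block), Baat's difference of effects had an adjusted p of 0.06 and Slc27a5 in late minus P1 day 0 gained its call (adjusted p 0.044). It changed no other call of a member. Baat's adjusted p was 0.081 with no filter and 0.09 with only the compared groups. After normexp the difference of effects was -0.85 for Cyp27a1, and Cyp27a1 in late minus P1 induced was -0.97.

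Signs changed for differences that were not called in the reported fit, and 1 of them was called after the change, Cyp7b1 in late minus P1 induced with the mean of all probes (-1.15, adjusted p 0.003). Without single replicates (range over all of them) and under other settings, the log2 values in P1 uninduced minus day 0 were as follows. Cyp7a1 ranged from -0.22 to 0.0088, and was 0.0295 after quantile normalization and 0.25 after normexp. Cyp8b1 ranged from -0.11 to 1.05, and was -0.18 within slide 5. Baat ranged from -0.41 to 0.44, and was 0.41 within slide 4. In P1 induced minus uninduced, Cyp8b1 ranged from -0.67 to 0.49, and was 0.10 after normexp and 0.23 within slide 5. Cyp7b1 ranged from -0.76 to 0.11, and was 0.22 after normexp and 0.37 with the mean of all probes. In late induced minus uninduced, Acox2 ranged from -0.0577 to 0.68. The value of -0.0577 was that without late induced replicate 3, which is also that with slide as a fixed block. Amacr ranged from -0.15 to 0.0633. Scp2 in late minus P1 day 0 was 0.0577 with slide as a random block. Cyp7b1 in late minus P1 induced ranged from -0.49 to 0.38, and was -0.46 after normexp, -1.15 with the mean of all probes and -0.0259 with slide as a random block. In the difference of effects, Hsd3b7 was 0.0196 after quantile normalization and Cyp8b1 ranged from -0.27 to 0.89. Cyp7b1 ranged from -0.19 to 0.68, and was -0.0405 after normexp and -0.81 with the mean of all probes. The cause was not tested.

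Over all genes, late minus P1 day 0 had 3004 calls, 1959 after normexp and 7423 with no filter. Late minus P1 induced had 4902, 3200 and 12768 under the same settings. Late induced minus fresh had 11468, and 21197 with no filter. P1 uninduced minus day 0 had 2298, and 1086 within slide 5, where 1 array stood against 1 and the spread came from all 12 fresh and P1 arrays. The share of calls that were higher was 40.6% in late minus P1 induced, 52.5% after quantile normalization and 16.0% with no filter. It was 32.2% in late minus P1 day 0, and 14.9% with no filter. It was 48.1% in late induced minus fresh, 37.1% after normexp and 26.1% with no filter. The median change of all genes moved by over 0.1 in P1 day 0 minus fresh (-0.01, 0.13 after quantile normalization, -0.17 after normexp) in late induced minus fresh (-0.01, 0.19 and -0.32), in late minus P1 induced (-0.04, 0.08 and -0.16) and, after normexp, in P1 induced minus fresh (0.04, -0.08). Of the lists, the P1 induction raised 4 to 7 of the other enzymes and 8 to 10 of the regulators over the alternatives. Genes below background have only a bound, and 3 arrays a group limit the precision.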

Other observations

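A second Cyp7a1 probe, of another transcript, was well above background on a single CLiP array, late uninduced replicate 3, with a log2 level of -1.90. It had -6.87 and -6.97 on the other late uninduced arrays, and -1.79, -1.87 and -1.11 in fresh hepatocytes. The probe used for Cyp7a1 was below background on that array (-6.61). In late CLiPs Cyp2a12 had log2 levels of -2.93, -6.93 and 1.59 in late induced CLiPs against -4.46, -6.96 and -7.22 in late uninduced CLiPs, so its late induced arrays ranged from below background to well above it, with replicate 3 the highest as for Slc27a5 and Baat.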
